A study of Mus musculus with 24 samples.

Results

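The 10 integrin genes described here are Itgav, Itgb1, Itgb3, Itgb5, Itgb8, Itga1, Itga5, Itga8, Itga11 and Itgbl1, a set chosen by name as the matrix-binding and TGF-β-activating integrins of fibroblasts. They are 10 of the 55291 gene names in each library's table, and were chosen with earlier results of these data known. Of those names, 16258 had enough reads for edgeR's filter, and all 10 integrin genes were among them. Pulmonary fibroblasts were isolated from 4- to 8-week-old C57BL/6 mice, either wild type (WT) or lacking the innate receptor TLR4 (TLR4-/-). Each group of cells came from 3 to 4 lungs pooled together, was used at passages 3 to 6, and was moved to low-serum medium the evening before treatment. Treatment lasted 24 h and was PBS, rmCIRP at 1 μg/ml, rmTGF-β1 at 2 ng/ml or the 2 agents together, where rm stands for recombinant mouse protein. CIRP is an RNA-binding protein that acts on TLR4 once it is released from cells. The 8 conditions had 3 libraries each, 24 in all. Since cells were pooled and nothing names separate animals or cultures, the p-values measure the spread between these libraries, which may be technical.

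Integrins are receptors made of an α and a β chain that hold a cell to its matrix and link that matrix to the actin cytoskeleton. In lung fibroblasts, the αv chain pairs with several β chains, and these αv integrins bind the latency-associated peptide that keeps secreted TGF-β inactive, so that force or proteases can free the cytokine. The β1 chain is the common partner of the collagen-binding α1 and α11, the fibronectin-binding α5 and the nephronectin-binding α8 chains. Itgbl1 encodes a secreted protein that resembles the stalk of a β chain and has no ligand-binding head.

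Between 29853346 and 39664606 reads were counted on genes per library. The normalized count used below is the count divided by the library's DESeq2 size factor. Markers of the labelled cell type were present: all 10 fibroblast markers were counted in every condition. The Tlr4 count was not lower under the label TLR4-/-: it was 718, 757.7 and 801.7 in the WT libraries with PBS and 891, 892.3 and 926.7 in the others with PBS, so these are called the libraries labelled TLR4-/- throughout. Which part of the gene is deleted is not given in the sources used here, and a count over the whole gene does not show whether the receptor is made. They also carried between 4403 and 6201 raw reads of Xist, a transcript of female cells, where WT libraries had at most 3. The Y-linked gene Ddx3y was counted in both genotypes. Of the 24 libraries, 2 stood apart from their replicates: the third labelled TLR4-/- library with rmTGF-β1 and the third with both agents. The chi-square per degree of freedom between replicates was 12.5 and 16.3 for the first of these and 47.8 and 32.9 for the second, against 2.58 to 7.33 over the other 20 pairs. Some results of the integrin genes that rest on them are given with and without them. Those of the other gene lists are given with all libraries only. In bulk RNA, fewer cells of a type and less RNA per cell cannot be told apart.

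The promoter windows below are those of the 4 integrin genes that were each called higher with rmTGF-β1 in WT cells. They come from RefSeq on GRCm38.p6, were matched by gene symbol, and were found for 9 of the 10 genes, all but Itgb3. Each is 300 bases around the start of the gene and is printed on the gene's own strand. Capitals mark CAGAC, the core of the element that SMAD factors bind, and GGGCGG, the GC box bound by SP1, on either strand.
Itgav, chr2:83724147-83724446 (+): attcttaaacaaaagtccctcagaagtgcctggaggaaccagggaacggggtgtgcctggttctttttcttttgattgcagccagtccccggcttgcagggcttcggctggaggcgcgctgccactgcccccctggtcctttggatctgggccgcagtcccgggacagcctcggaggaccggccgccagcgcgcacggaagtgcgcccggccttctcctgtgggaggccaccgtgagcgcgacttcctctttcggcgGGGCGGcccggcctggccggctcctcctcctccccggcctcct
Itgb5, chr16:33829415-33829714 (+): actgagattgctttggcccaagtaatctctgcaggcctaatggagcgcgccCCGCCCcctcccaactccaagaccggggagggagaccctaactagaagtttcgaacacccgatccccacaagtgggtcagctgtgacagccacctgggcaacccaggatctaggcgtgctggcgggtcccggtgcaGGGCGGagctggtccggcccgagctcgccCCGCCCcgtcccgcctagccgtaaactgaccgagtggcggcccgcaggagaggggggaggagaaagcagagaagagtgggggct
Itga5, chr15:103366742-103367041 (-): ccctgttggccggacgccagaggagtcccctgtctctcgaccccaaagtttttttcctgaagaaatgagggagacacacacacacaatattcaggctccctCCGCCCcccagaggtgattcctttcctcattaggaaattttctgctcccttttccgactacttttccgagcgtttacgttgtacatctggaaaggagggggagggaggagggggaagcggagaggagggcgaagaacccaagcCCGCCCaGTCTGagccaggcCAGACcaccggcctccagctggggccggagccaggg
Itga11, chr9:62677605-62677904 (+): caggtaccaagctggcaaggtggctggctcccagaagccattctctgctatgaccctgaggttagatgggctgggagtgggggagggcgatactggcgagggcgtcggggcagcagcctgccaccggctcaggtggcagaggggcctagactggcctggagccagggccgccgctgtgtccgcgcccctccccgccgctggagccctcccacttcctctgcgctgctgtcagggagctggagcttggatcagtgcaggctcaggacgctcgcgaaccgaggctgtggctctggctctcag
No copy of one motif overlapped a copy of the other in these windows. CAGAC occurred in 4 of the 9 windows, those of Itgb1, Itgb8, Itga1 and Itga5, and in 49.6% of all 32851 windows of the table. GGGCGG occurred in 5 of the 9, those of Itgav, Itgb1, Itgb5, Itga5 and Itgbl1, and in 35.7% of all windows. The TEAD element GGAATG was found in 1 of the 9, that of Itgb1, and in 14.7% of all windows. Among the 9, none held the AP-1 element TGANTCA, the TATA box TATAAA or a CArG box, which 7.81%, 13.6% and 1.63% of all windows did. Of the 4 genes called higher, Itga5 thus had 2 copies of CAGAC, and the windows of Itgav, Itgb5 and Itga11 had none.

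With PBS, Itgb1 and Itga5, the chains of the fibronectin receptor, had the most transcript of the set in these bulk cultures. The Itgb1 count cannot be divided among the α chains that share it, and macrophage markers were counted in the same libraries. On the scale of normalized counts per kilobase of exon, Itgb1 had 28412 and Itga5 18587 in WT cells. Itgb5, the αv partner that binds vitronectin, had 4375, and Itgav 1287. Itga8 had 609, Itga11 491, Itgb3 277 and Itga1 148. Itgbl1 had 28.5 and Itgb8, the αv partner that holds latent TGF-β without linking to actin, had 7.3. With the mean over all 24 libraries the order differed only in the middle, where Itga11 had 582, Itgb3 432 and Itga8 384. Itgb8 and Itgbl1 had 7 to 139 and 40 to 134 raw reads per library, so their values carry more counting error than those of the other 8 genes.

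**Figure D1:**
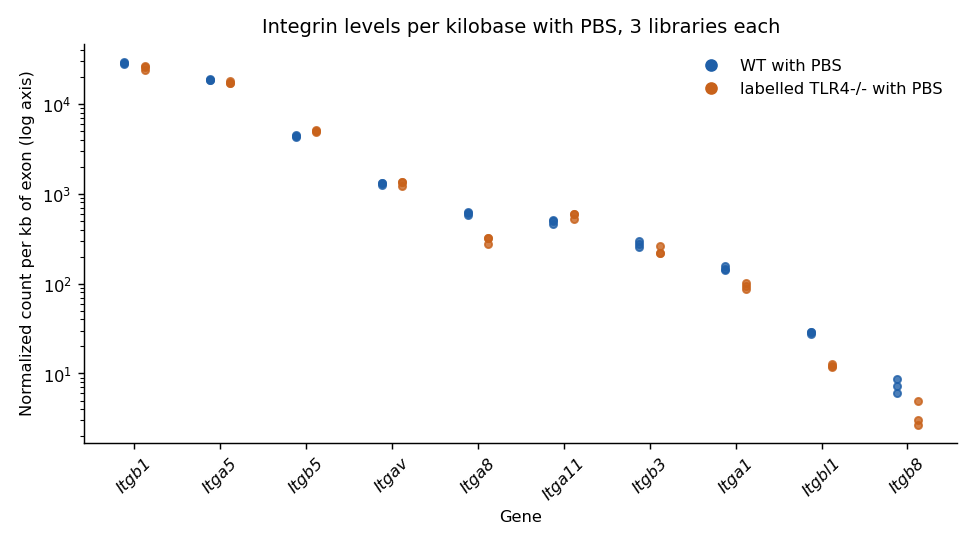
Normalized count per kilobase of exon (log axis) of each integrin gene with PBS, in 3 WT libraries (blue) and 3 labelled TLR4-/- libraries (orange). Itgb1 and Itga5 lie highest and Itgb8 lowest in all 6 libraries.

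rmCIRP moved the αv group in opposite directions in WT cells: Itgav, Itgb3 and Itgb8 were higher and Itgb5 was lower. Of the 10 integrin genes, 3 were called higher, where 19.8% of all genes tested were, and 6 were called lower, where 24.1% were. Itgb3, the vitronectin-receptor chain also known from platelets, had 1520, 1628 and 1748 normalized counts with PBS and 3287, 3495 and 4002 with rmCIRP. Every rmCIRP library was above every PBS library, and the difference was 1.13 on the log2 scale (SE 0.23, edgeR adjusted p = 0.00039). Itgav had 13346, 14063 and 14071 with PBS and 17519, 18345 and 19102 with rmCIRP. Its groups did not overlap either, and the log2 fold change was 0.40 (SE 0.05, edgeR adjusted p = 7.5e-07). Itgb5 went the other way, from 15097, 15696 and 15842 with PBS to 12457, 12466 and 13197 with rmCIRP. That was a log2 fold change of -0.30 (SE 0.04, edgeR adjusted p = 9.3e-06). Itgb8 had 66.61, 79.88 and 95.84 normalized counts with PBS against 98.77, 115.7 and 137.3 with rmCIRP, and it rose by 0.53 on the log2 scale (SE 0.22, edgeR adjusted p = 0.058). This call was lost in 3 of the 6 fits that left out 1 library, those without the first or the third PBS library or the third rmCIRP library, with adjusted p up to 0.22.

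**Figure D2:**
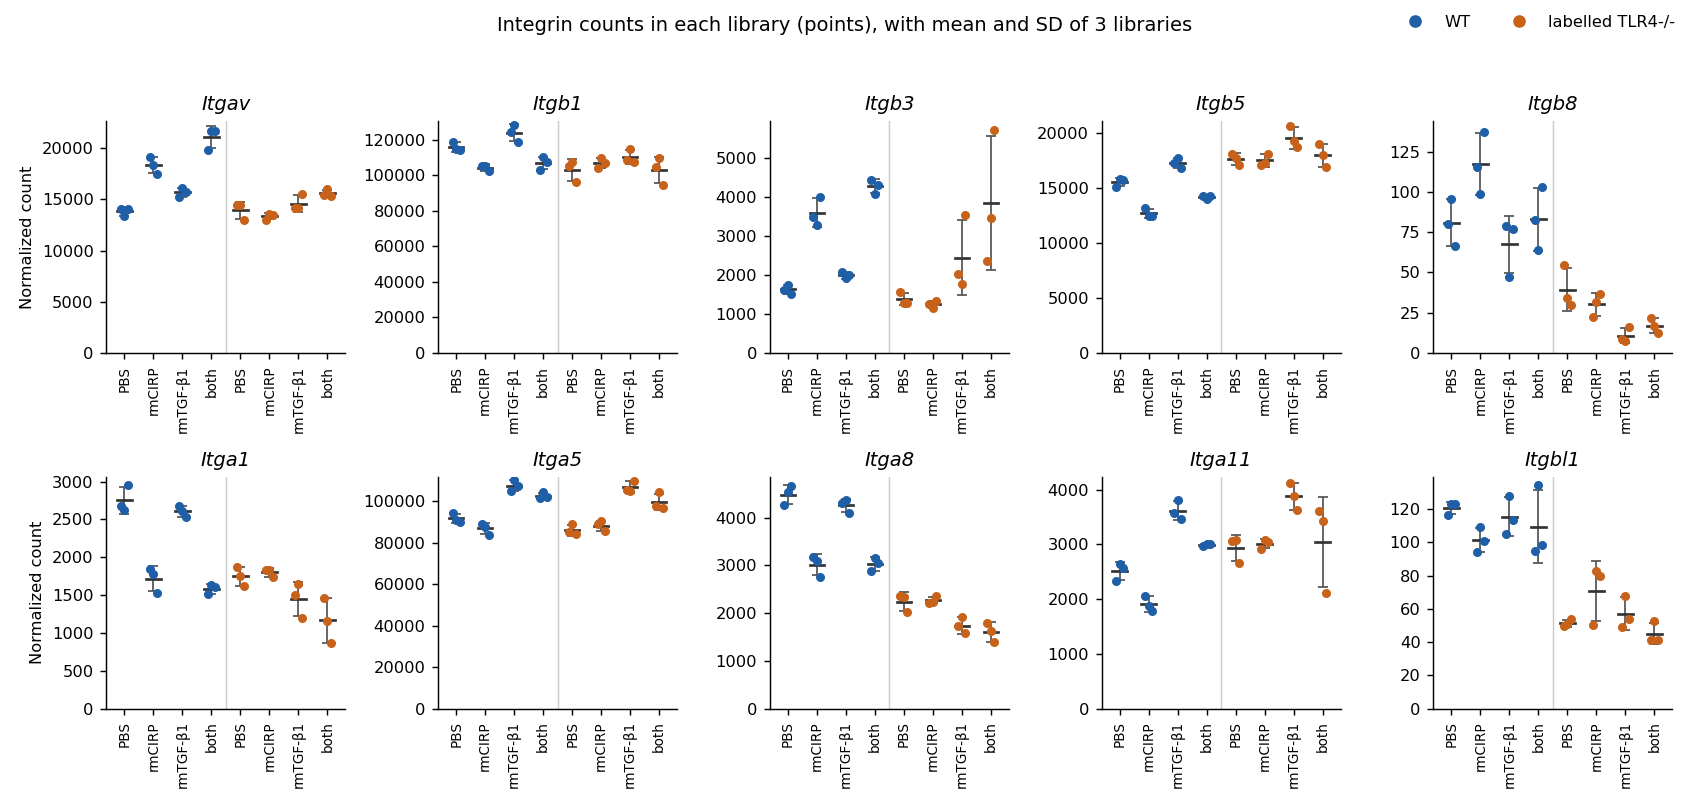
Normalized counts of the 10 integrin genes in each of 24 libraries (points), with the mean (line) and SD (bars) of the 3 libraries of each condition, WT in blue and labelled TLR4-/- in orange. Itgav is highest in the WT conditions that hold rmCIRP, Itga1 and Itga8 lie lower in the same conditions, and Itgb3 spreads from 2361 to 5713 in the labelled TLR4-/- libraries with both agents.

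In the β1 group, the collagen and nephronectin receptor chains of this set fell with rmCIRP in WT cells. Itga2, a collagen receptor chain outside the set, rose, from a mean of 1496 to 3977 normalized counts. Itga1, whose product binds basement-membrane collagen, had 2625, 2675 and 2959 normalized counts with PBS and 1533, 1783 and 1839 with rmCIRP. All rmCIRP libraries were below all PBS libraries, and the log2 fold change was -0.69 (SE 0.12, edgeR adjusted p = 8.5e-05). Itga8, typical of contractile mesenchymal cells, had 4262, 4539 and 4659 with PBS and 2761, 3099 and 3181 with rmCIRP. It thus fell without overlap by 0.58 on the log2 scale (SE 0.08, edgeR adjusted p = 3.1e-06). Itga11, the fibrillar-collagen receptor chain of fibroblasts, had 2335, 2576 and 2646 with PBS and 1774, 1877 and 2064 with rmCIRP. Its change was -0.41 (SE 0.12, edgeR adjusted p = 0.011), again with no overlap. Itgb1 itself had 114046, 114832 and 118976 with PBS and 102401, 105346 and 105584 with rmCIRP, a change of -0.16 (SE 0.05, edgeR adjusted p = 0.015). Itga5 moved least, by -0.08 (SE 0.04, edgeR adjusted p = 0.087), and lost its call in 4 of the 8 other settings and in 4 of the 6 fits without 1 library (the second or the third rmCIRP, or the first or the second PBS library), with adjusted p up to 0.46. Itgbl1 had 116.5, 122.8 and 122.8 with PBS and 94.44, 100.8 and 109.1 with rmCIRP, and its log2 fold change of -0.26 (SE 0.15) had an adjusted p of 0.20 in edgeR. The median log2 fold change of the 10 genes was -0.21, beside -0.02 over all genes tested.

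The summed markers of other mesenchymal cells moved with these falls. The 5 smooth muscle and pericyte markers summed to 83050 to 88848 normalized counts in WT libraries with PBS and to 54811 to 60025 with rmCIRP. The 10 fibroblast markers summed to 807075 to 866295 and to 681665 to 726165, and the 15 macrophage markers to 94458 to 102915 and to 83710 to 89088. Most of that last sum was Lyz2, with a mean of 78175 with PBS and 62462 with rmCIRP, and by edgeR 10 of the 15 were called lower and 5 higher. Among the 5, Fcgr1 went from a mean of 60.64 to 292.4 normalized counts, Cd14 from 1569 to 5122 and Adgre1 from 2033 to 4014. Of the 10 fibroblast markers, 2 were called higher and 6 lower, and of the 5 smooth muscle and pericyte markers 0 and 3. Over all genes tested, 19.8% were higher and 24.1% lower. No marker of these 3 lists was at 0 in any condition. The 3 platelet markers, of which 2 were tested, summed to 370.4 to 403.3 with PBS and to 582.8 to 637.9 with rmCIRP beside the rise of Itgb3, with 1 of the 3 at 0 in the rmCIRP libraries, and Pf4 alone was called (0.79, edgeR adjusted p = 9.6e-07). The 6 epithelial markers, of which 3 were tested, summed to 33.96 to 43.47 with rmCIRP against 70.78 to 115.5 with PBS, the 5 endothelial ones to 636.7 to 800.2 against 584.2 to 868.6, and the 3 T cell markers were all at 0 with rmCIRP. Their part in the change of the integrin genes was not tested.

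In the libraries labelled TLR4-/-, rmCIRP changed none of the 10 integrin genes by the same test, and 0% of all genes tested were called in either direction by edgeR. DESeq2 also called 0 of the 10, beside 0.23% of all genes with an adjusted p. Of all genes, 6.99% had an unadjusted p under 0.05, and Itgbl1 was the 1 integrin gene among them. Itgb3 had 1283, 1292 and 1563 normalized counts with PBS and 1142, 1247 and 1344 with rmCIRP, overlapping groups with a log2 fold change of -0.14 (95% interval -0.63 to 0.35). Itgav changed by -0.06 (95% interval -0.16 to 0.04), Itga1 by 0.05 (-0.20 to 0.30) and Itga8 by 0.03 (-0.14 to 0.19). For these 4 genes the intervals did not reach the WT values. Itgb8 was at 29.87, 33.91 and 54.34 with PBS and at 22.61, 31.55 and 36.37 with rmCIRP, overlapping groups, and at such counts its 95% interval of -1.0 to 0.24 is wide. Itgbl1 had 49.4, 50.87 and 53.76 with PBS and 50.14, 79.63 and 82.59 with rmCIRP, and its change was 0.47 on the log2 scale (SE 0.18, edgeR adjusted p = 0.56).

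**Figure D3:**
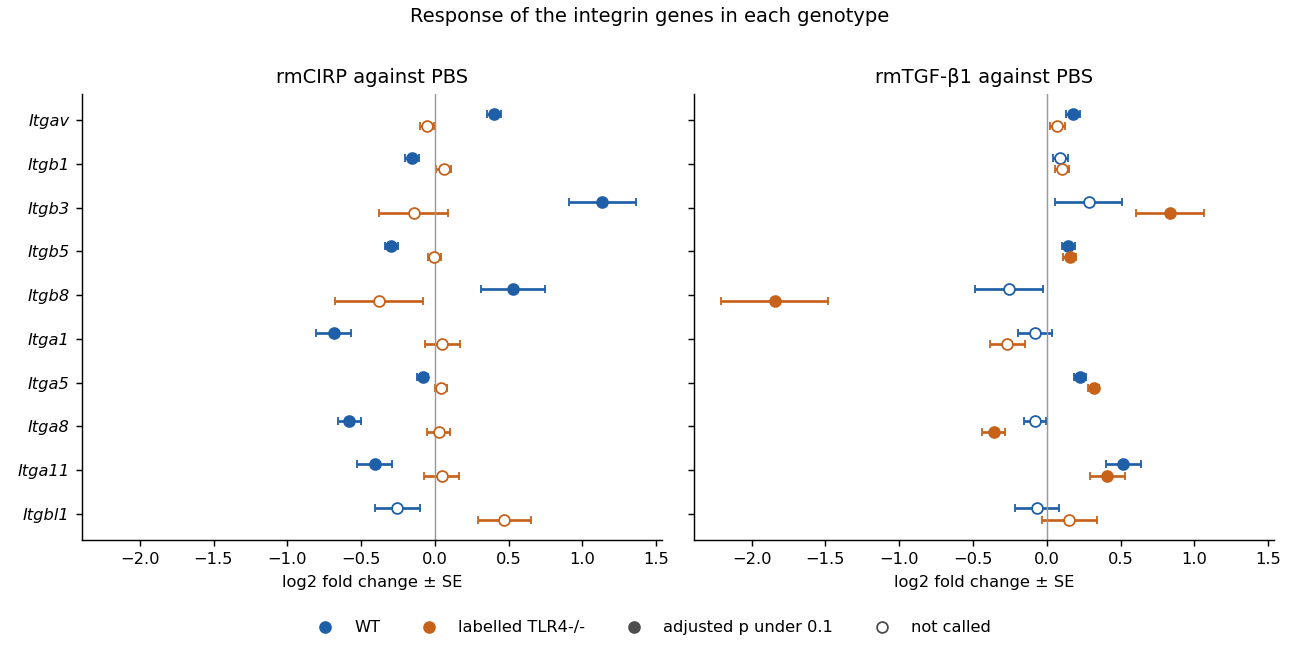
Log2 fold change with its SE for rmCIRP against PBS (left) and rmTGF-β1 against PBS (right), in WT (blue) and labelled TLR4-/- (orange) cells, 3 libraries a condition. Filled points passed an adjusted p of 0.1. With rmCIRP, 9 WT points and no labelled TLR4-/- point are filled, and with rmTGF-β1, Itgb5, Itga5 and Itga11 are filled in both genotypes.

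The difference between the genotypes in the rmCIRP response was itself tested, and it passed the threshold for all 10 integrin genes: 7 had a higher response in labelled TLR4-/- cells than in WT, where 17.1% of all genes tested did, and 3 a lower one, where 14.3% did. The 3 were the αv chain and the β chains that rose in WT cells. The response difference, labelled TLR4-/- minus WT, was -1.28 for Itgb3 (SE 0.33, edgeR adjusted p = 0.006), -0.46 for Itgav (SE 0.07, edgeR adjusted p = 3.1e-05) and -0.91 for Itgb8 (SE 0.37, edgeR adjusted p = 0.076). Among the 7, Itga1 differed by 0.74 (SE 0.17, edgeR adjusted p = 0.0026), Itga8 by 0.61 (SE 0.11, edgeR adjusted p = 3e-04) and Itgb5 by 0.29 (SE 0.06, edgeR adjusted p = 0.0011). Itgav, Itgb3, Itgb5, Itga1 and Itga8 kept the call in each of 8 other settings and each of 12 fits without 1 library. The other 5 did not: Itga5 lost it in 8 of those 12 fits, Itgb8 in 7, Itga11 in 5, Itgb1 in 2 and Itgbl1 in 1. Itga5 lost it in 4 of the 8 other settings as well. Without the second labelled TLR4-/- library with rmCIRP, 5 of the 10 genes were called, and 26.3% of all genes in either direction. WT values enter this test and the one in WT cells alike.

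rmTGF-β1 raised 4 integrin genes in WT cells, where 5.77% of all genes tested were called higher, and lowered none, where 6.65% were called lower. Itga11 had 3468, 3568 and 3808 normalized counts with rmTGF-β1, all above the 2335 to 2646 with PBS, a log2 fold change of 0.52 (SE 0.12, edgeR adjusted p = 0.0078). Itga5, in high amounts already, went from 90018, 90997 and 94049 to 104844, 107241 and 110333. It rose by 0.22 (SE 0.04, edgeR adjusted p = 0.00044). Itgav rose by 0.18 (SE 0.05, edgeR adjusted p = 0.023) and Itgb5 by 0.15 (SE 0.04, edgeR adjusted p = 0.034), and without the second rmTGF-β1 library these 2 had adjusted p of 0.12 and 0.17. The other 6 did not pass the test. Itgb3 had 1913, 1988 and 2078 with rmTGF-β1, above all PBS libraries, but its log2 fold change of 0.28 (SE 0.23) had an adjusted p of 0.52 in edgeR. The model estimated the spread of each gene over all 24 libraries. The SD of Itgb3 was 114 with PBS and 82.6 with rmTGF-β1 in WT. In labelled TLR4-/- libraries it was 959 with rmTGF-β1 and 1708 with both agents. That wide spread enters the SE of Itgb3 in every comparison of this model. The median over the 10 genes was 0.12, beside -0.02 over all genes.

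In the libraries labelled TLR4-/-, rmTGF-β1 raised 4 integrin genes, where 12.1% of all genes tested were called higher, and lowered 2, where 11.7% were called lower. Itga5 had 84091, 85003 and 89012 normalized counts with PBS and 104892, 105344 and 109870 with rmTGF-β1, a rise of 0.32 without overlap (SE 0.04, edgeR adjusted p = 3.5e-06). Itga11 had 2655, 3068 and 3073 with PBS and 3633, 3877 and 4114 with rmTGF-β1. It rose by 0.41 (SE 0.12, edgeR adjusted p = 0.019). Itgb5 rose by 0.16 (SE 0.04, edgeR adjusted p = 0.014), a call lost without the first rmTGF-β1 library (adjusted p = 0.10). Itgb8 had 7.439, 8.521 and 15.95 normalized counts with rmTGF-β1, all below the 29.87 to 54.34 with PBS. Its log2 fold change was -1.85 (SE 0.37, edgeR adjusted p = 0.0011). Itga8 fell by 0.36 (SE 0.08, edgeR adjusted p = 0.0028), from 2017, 2346 and 2358 with PBS to 1574, 1721 and 1921 with rmTGF-β1, with no overlap.

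The size of the Itgb3 change in these cells depended on 1 library. With rmTGF-β1 it had 2029 normalized counts in the first library, 1764 in the second and 3541 in the third, the library that stood apart, all above the 1283 to 1563 with PBS. Over all 3 libraries the log2 fold change was 0.835 (SE 0.23, edgeR adjusted p = 0.014). It was 0.47 (SE 0.21, edgeR adjusted p = 0.17) without the third library, and 0.47 (SE 0.12, edgeR adjusted p = 0.0071) when the third library with both agents was left out as well. In that last fit, where 21.5% of all genes tested were called in either direction, 7 of the 10 genes were, the same 6 and Itgb1 (0.12, SE 0.04, edgeR adjusted p = 0.057). The third library also had the lowest counts of Itga1, at 1198 against 1506 and 1643, and of Itgb1, Itgb5, Itga8 and Itga11. Its 5 smooth muscle and pericyte markers summed to 48974 normalized counts, against 58320 and 59347, and its 15 macrophage markers to 389548, against 392707 and 374873. What part these markers had was not tested.

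The difference between genotypes in the rmTGF-β1 response passed the threshold for none of the 10 genes, where 0.0861% of all genes tested did in either direction. At an unadjusted p under 0.05, edgeR gave 2 of the 10, Itgb8 and Itga8, beside 10.4% of all genes. DESeq2 called Itgb8 alone, beside 1.32% of all genes with an adjusted p. The largest difference in size, labelled TLR4-/- minus WT, was -1.59 for Itgb8 (SE 0.44, edgeR adjusted p = 0.17). Without both libraries that stood apart it was -2.02 (SE 0.50, edgeR adjusted p = 0.078). For Itgav, Itgb1, Itgb5, Itga5 and Itga11 the difference was between -0.11 and 0.09. Itgb3 differed by 0.55 (95% interval -0.12 to 1.22) and Itga8 by -0.28 (-0.51 to -0.05). For Itgbl1 it was 0.22 (-0.27 to 0.71) and for Itga1 -0.18 (-0.53 to 0.16).

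**Figure D4:**
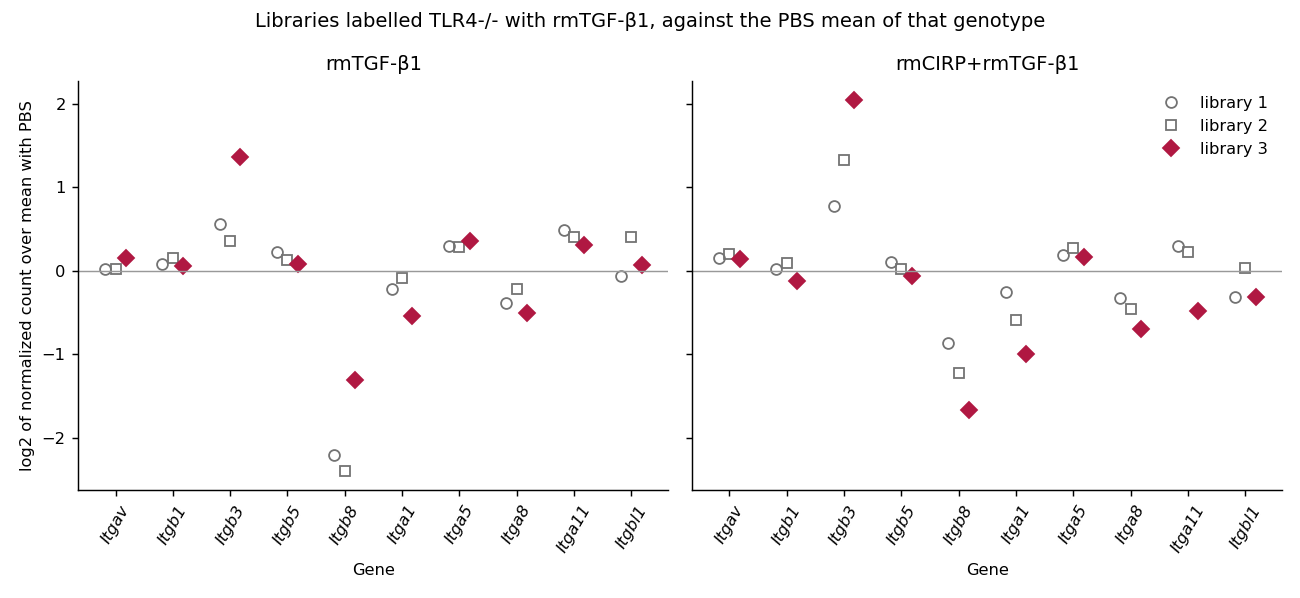
Log2 of the normalized count over the mean of the 3 PBS libraries, for each integrin gene in the 3 labelled TLR4-/- libraries with rmTGF-β1 (left) and with both agents (right). The third library (filled diamonds) has the highest Itgb3 and the lowest Itgb1, Itgb5, Itga1, Itga8 and Itga11 of its group in both panels. Its Itgb8 is the highest with rmTGF-β1 and the lowest with both agents.

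Adding rmCIRP to rmTGF-β1 in WT cells gave calls for 7 integrin genes, 2 higher, where 20.5% of all genes tested were, and 5 lower, where 21.7% were. Itgb3 had 4079, 4318 and 4428 normalized counts with both agents, all above the 1913 to 2078 with rmTGF-β1 alone, a log2 fold change of 1.10 (SE 0.22, edgeR adjusted p = 0.00052). Itgav reached its highest level of all conditions, 19795, 21671 and 21716, a rise of 0.42 (SE 0.05, edgeR adjusted p = 4.3e-07). Itga1 was at 1511, 1606 and 1631 with both agents and at 2534, 2614 and 2674 with rmTGF-β1 alone, without overlap. The log2 fold change was -0.73 for Itga1 (SE 0.12, edgeR adjusted p = 5.5e-05), -0.50 for Itga8 (SE 0.08, edgeR adjusted p = 2.7e-05), -0.29 for Itgb5 (SE 0.04, edgeR adjusted p = 1.6e-05) and -0.22 for Itgb1 (SE 0.05, edgeR adjusted p = 0.0014). The fall of Itga11, by 0.28 (SE 0.12, edgeR adjusted p = 0.075), was lost in 5 of 6 fits without 1 library, all but that without the third rmTGF-β1 library.

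Adding rmTGF-β1 to rmCIRP in WT cells raised 4 of the 10, where 10% of all genes tested were called higher, and lowered none, where 10.5% were called lower. These were Itga11, by 0.65 (SE 0.12, edgeR adjusted p = 0.00062), Itga5, by 0.24 (SE 0.04, edgeR adjusted p = 0.00011), Itgav, by 0.20 (SE 0.05, edgeR adjusted p = 0.0062), and Itgb5, by 0.16 (SE 0.04, edgeR adjusted p = 0.014). With both agents, Itga11 was at 2977, 2998 and 3012, above every WT library with PBS or rmCIRP and below every one with rmTGF-β1 alone. Both tests share the libraries that received both agents. The interaction of the agents in WT cells passed the threshold for none of the 10, where 0.0492% of all genes tested did in either direction. None of the 10 had an unadjusted p under 0.05, where 5.64% of all genes did, and DESeq2 called none of them, where it called 0.3%. The estimates lay between -0.24 (Itgb8, 95% interval -0.90 to 0.42) and 0.17 (Itgbl1, -0.28 to 0.61), and for Itgav the interval was -0.12 to 0.16.

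In labelled TLR4-/- cells, both agents against rmTGF-β1 alone gave no call among the 10, where 2.69% of all genes tested were called in either direction. DESeq2 gave no adjusted p for Itgb8 and Itgbl1 and called 3 of the other 8, Itgb5, Itga5 and Itga11, all lower, beside 8.71% of all genes with an adjusted p. By edgeR, 6 of the 10 had an unadjusted p under 0.05, where 17.9% of all genes did. Itgb3 had 2361, 3463 and 5713 normalized counts with both agents and 1764, 2029 and 3541 with rmTGF-β1, overlapping groups with a log2 fold change of 0.64 (SE 0.22, edgeR adjusted p = 0.14). The highest library in each group was the one that stood apart. Without both of these it was 0.615 (SE 0.12, edgeR adjusted p = 0.013) and the 1 call among the 10, where 3.96% of all genes were called. Calls over all genes also moved with the library left out, from 437 to between 0 and 2674. Leaving out the third library of rmTGF-β1 alone gave 4 calls, Itgb3, Itgb5, Itga1 and Itga11, where 13% of all genes were called. Leaving out the first library of both agents gave the same 4, where 16.2% were. Leaving out the second gave Itga5 and Itga11, where 4.46% were, and leaving out the third gave none, where 0.00606% were, a single gene. Itga11 had 3610, 3435 and 2108 with both agents, and the lowest was again the library that stood apart, whose smooth muscle and pericyte markers summed to 33696 against 53581 and 49404, and whose 10 fibroblast markers summed to 696437 against 828308 and 793431. In the same library the 15 macrophage markers summed to 445886 against 392194 and 358139, and the 5 endothelial markers to 747.9 against 391.6 and 309.7. Their part was not tested.

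Against rmCIRP alone, both agents raised 3 integrin genes in labelled TLR4-/- cells, where 17.2% of all genes tested were called higher, and lowered 4, where 15.6% were called lower. Itgb3 rose by 1.62 (SE 0.23, edgeR adjusted p = 3.9e-05), from 1142, 1247 and 1344 normalized counts, and by 1.23 (SE 0.11, edgeR adjusted p = 4.2e-08) without both libraries that stood apart. All 3 libraries with both agents were above all with rmCIRP. Itgav rose by 0.22 (SE 0.05, edgeR adjusted p = 0.0022) and Itga5 by 0.17 (SE 0.04, edgeR adjusted p = 0.0021). The 4 that fell were Itga1 (-0.63, SE 0.12, edgeR adjusted p = 0.00076), Itga8 (-0.51, SE 0.08, edgeR adjusted p = 0.00011), Itgbl1 (-0.65, SE 0.18, edgeR adjusted p = 0.012) and Itgb8 (-0.83, SE 0.35, edgeR adjusted p = 0.086). Without both libraries Itga1 changed by -0.46 and Itga8 by -0.42, still called. The groups of Itgbl1 overlapped, and its call was lost when only the libraries compared were fitted (adjusted p = 0.11). The call of Itgb8 was lost without both libraries that stood apart (adjusted p = 0.24), with only the libraries compared (adjusted p = 0.10), and in 4 of 6 fits without 1 library, the second or the third of either group. Itga11 changed by 0.01 (SE 0.12) and, without both libraries, by 0.22 (SE 0.06, edgeR adjusted p = 0.011).

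With PBS alone the libraries labelled TLR4-/- already differed from WT in 7 of the 10: 1 was higher in them, where 23.2% of all genes tested were, and 6 were lower, where 24% were. Itga8 had 2017, 2346 and 2358 normalized counts in labelled TLR4-/- libraries and 4262, 4539 and 4659 in WT, without overlap. It was lower by a log2 fold change of -1.01 (SE 0.08, edgeR adjusted p = 3.5e-10). Itgbl1 had 49.4, 50.87 and 53.76 against 116.5, 122.8 and 122.8, a log2 fold change of -1.23 (SE 0.17, edgeR adjusted p = 2.9e-06). Itgb8, at 29.87, 33.91 and 54.34 against 66.61, 79.88 and 95.84, differed by -1.04 (SE 0.25, edgeR adjusted p = 0.0022). Neither of these pairs of groups overlapped. Itga1 differed by -0.66 (SE 0.12, edgeR adjusted p = 1e-04), Itgb1 by -0.17 (SE 0.05, edgeR adjusted p = 0.0067) and Itga5 by -0.10 (SE 0.04, edgeR adjusted p = 0.047). The call of Itga5 was lost in 3 of 8 other settings and in 4 of 6 fits without 1 library, all but those without the second labelled TLR4-/- or the third WT library, and that of Itgb1 without the third labelled TLR4-/- library. Itgb5 was higher, by 0.18 (SE 0.04, edgeR adjusted p = 0.0017), at 17084, 17731 and 18123 against 15097, 15696 and 15842. Itgav (0.01, 95% interval -0.09 to 0.11), Itgb3 (-0.25, -0.73 to 0.24) and Itga11 (0.22, -0.03 to 0.46) did not pass the test.

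Markers of other cell types differed in this contrast as well. The 15 macrophage markers, all counted in both genotypes, summed to 357898 to 410134 normalized counts in labelled TLR4-/- libraries and to 94458 to 102915 in WT with PBS, and each of the 15 was called higher by edgeR. The 5 smooth muscle and pericyte markers summed to 55110 to 58164 against 83050 to 88848. Of these 5, 3 were called lower and 1 higher, and Cnn1 alone had a mean of 29354 against 48330. The 5 endothelial markers summed to 291.7 to 369.5 against 584.2 to 868.6, and the 6 epithelial markers to 326.4 to 345.8 against 70.78 to 115.5. Over all genes tested, 23.2% were called higher and 24% lower. The 10 fibroblast markers summed to 766366 to 859171 against 807075 to 866295, and Fn1 and Col1a1 had the largest counts, with means of 235912 and 242156 in WT. By edgeR, 1 of the 10 was called higher, 3 lower and 6 neither. Pdgfra had a mean of 3455 against 7869 and Thy1 8025 against 17842. The 3 platelet markers summed to 1231 to 1408 against 370.4 to 403.3, and 1 of the 2 tested was called higher. Itga2b, also a platelet marker, had a mean of 63.45 against 72.2. None of these markers was at 0 in either group, while 1 of the 3 T cell markers was at 0 in labelled TLR4-/- and 2 in WT libraries with PBS, and these summed to under 10 counts in each library. What part these cell types had in the genotype difference was not tested. The genotype label, the pool of lungs, the Xist count and these markers differed together, so they cannot be told apart in any genotype comparison.

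Over all 8 conditions, the highest mean was 11 times the lowest for Itgb8, 3.44 times for Itgb3, 2.8 for Itga8, 2.68 for Itgbl1, 2.36 for Itga1, 2.03 for Itga11, 1.58 for Itgav, 1.54 for Itgb5, 1.25 for Itga5 and 1.2 for Itgb1. In the order of its condition means, all 7 pairs of neighbours overlapped for Itgb1. Itga8 and Itgb5 had the most steps without overlap, 3 of 7 each. For Itga8, the 2 WT conditions without rmCIRP, at 4486 ± 204 with PBS and 4260 ± 136 with rmTGF-β1 (SD, n = 3), overlapped each other and lay above the 2 with rmCIRP, at 3014 ± 223 and, with both agents, 3032 ± 139. All 4 labelled TLR4-/- conditions were below these, from 2272 ± 69.9 with rmCIRP to 1601 ± 204 with both agents. Itgb5 had the reverse order of genotypes, with its lowest mean in WT cells with rmCIRP, 12707 ± 425, and its highest in labelled TLR4-/- cells with rmTGF-β1, 19566 ± 989. Itgav had only 2 steps without overlap, those below its WT means with both agents, 21061 ± 1096, and with rmCIRP, 18322 ± 792. The other 6 of its conditions, from 13365 ± 288 to 15695 ± 455, formed a run of overlapping neighbours.

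Among the 45 pairs of integrin genes, Pearson's r of log2 CPM over the 24 libraries ran from -0.81 for Itgb5 and Itgb8 to 0.89 for Itga1 and Itga8, with a median of 0.16. Itgav and Itgb3 had 0.80, and Itga8 and Itgbl1 0.89. The 24 points share 8 conditions, so these values describe the groups as much as the libraries. Among 12310 genes whose mean reached 50 normalized counts, Itgb3 was most like Ggct (r = 0.984) and Noc2l (0.981), and Itga1 most like Prex2 (0.984) and the smooth muscle kinase gene Mylk (0.982). For Itga8 and Prelp, r was 0.978. Itgav was most like Clint1 (0.978) and Serp1 (0.954), Itgb5 like Map6 (0.965) and Ccdc80 (0.954), and Itgb1 like the collagen gene Col5a1 (0.925) and the non-muscle myosin gene Myh9 (0.915). For Itga11 the genes were Nuak1 (0.956) and Lrrk1 (0.949), for Itga5 Myo1d (0.941) and Sidt2 (0.939), for Itgb8 Rasl11a (0.95) and Kcnj2 (0.948), and for Itgbl1 Calu (0.943) and Cttn (0.935).

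Genes of the proteins that connect integrins to actin were called mainly lower with rmCIRP in WT cells. Of 24 genes of the adhesion machinery, 23 were tested. Of these, 1 was called higher, where 19.8% of all genes tested were, and 15 lower, where 24.1% were. The median log2 fold change was -0.17 beside -0.02 over all genes. The 4 largest were falls: Lims2 (-0.83, edgeR adjusted p = 4.1e-06), a partner of integrin-linked kinase, the tensin gene Tns1 (-0.70, 5.9e-09), vinculin Vcl (-0.63, 3.2e-06) and the talin gene Tln2 (-0.50, 0.00064). Vcl had a mean of 12463 normalized counts with rmCIRP and 19221 with PBS. In labelled TLR4-/- cells 0 of the 23 were called with rmCIRP, where 0% of all genes tested were. The test of the difference between genotypes gave 14 of 23, all higher in labelled TLR4-/- cells, where 17.1% of all genes tested were.

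Of 18 integrin chains outside the set, 15 were tested. rmCIRP in WT cells gave 5 higher, where 19.8% of all genes tested were, and 4 lower, where 24.1% were, with a median of 0.14. The collagen receptor chain Itga2 rose by 1.41 (edgeR adjusted p = 0.00017), from a mean of 1496 to 3977 normalized counts. Itgal (1.39, edgeR adjusted p = 2.6e-12), Itga4 (0.93, 3.4e-08) and Itga3 (-0.58, 1.3e-05) were the next in size, and Itgal and Itga4 encode chains of leukocytes. With PBS, 10 of the 15 were higher in labelled TLR4-/- than in WT libraries and 1 was lower, with a median of 1.06. Over all genes tested, 23.2% were higher and 24% lower. Itgam (2.19, edgeR adjusted p = 3.9e-16), Itga6 (2.08, 7.1e-18), Itgb2 (2.03, 4.9e-16) and Itgal (1.85, 4.9e-15) were the largest, and Itgam and Itgb2 are 2 of the 15 macrophage markers given above.

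Among 21 matrix ligands of these receptors, 20 were tested. rmCIRP in WT cells gave 1 higher, where 19.8% of all genes tested were, and 10 lower, where 24.1% were. The median log2 fold change was -0.11. The largest were Edil3 (-0.57, edgeR adjusted p = 0.007), an αv ligand, tenascin Tnc, the 1 called higher (0.48), and the collagen I genes Col1a2 (-0.38, 0.00023) and Col1a1 (-0.37, 0.00082). With rmTGF-β1 in WT cells, 4 were higher, where 5.77% of all genes tested were, and 1 lower, where 6.65% were. Periostin Postn (0.41, edgeR adjusted p = 0.00055), Ccn2 (0.36, 0.0092), Col1a1 (0.22, 0.093) and osteopontin Spp1 (-0.21, 0.068) were the largest. In labelled TLR4-/- cells none of the 20 was called with rmCIRP, and rmTGF-β1 gave 2 higher, Ccn2 (0.35, edgeR adjusted p = 0.006) and Postn (0.35, 0.0013), and 3 lower, led by Col3a1 (-0.32, 0.077) and Lama4 (-0.20, 0.094). For rmTGF-β1 there, 12.1% of all genes tested were higher and 11.7% lower.

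A list of latent TGF-β, its activators and its receptors, among them Tgfbr1 and Tgfbr3, had 17 genes, all tested. rmCIRP in WT cells raised 3, where 19.8% of all genes tested were higher, and lowered 9, where 24.1% were lower. The median was -0.12. Nrros, which holds latent TGF-β on macrophages and microglia, changed by -1.65 (edgeR adjusted p = 2.2e-11), Tgfb3 by -1.35 (2.9e-08) and Tgfb2 by -0.79 (0.00064). The protease gene Mmp9 rose by 1.09 (edgeR adjusted p = 7.9e-09) and Tgfb1 by 0.59 (3.1e-06), the latter chosen after its value was seen. Tgfb1 had a mean of 4008 normalized counts with PBS and 6060 with rmCIRP, and Tgfb3 13584 and 5351. rmTGF-β1 raised 6 of the 17 in WT cells, where 5.77% of all genes tested were higher, and lowered 3, where 6.65% were lower. Tgfbr3 (-0.64, edgeR adjusted p = 0.0012), Tgfb1 (0.51, 2e-04), Ltbp2 (0.35, 0.0075) and Mmp9 (-0.33, 0.042) were the largest. In labelled TLR4-/- cells rmTGF-β1 raised 7, where 12.1% of all genes tested were higher, and lowered 2, where 11.7% were lower. The largest were Tgfbr3 (-1.08, edgeR adjusted p = 3.4e-06), Tgfb1 (0.60, 1.1e-05), Tgfbr1 (0.55, 0.00023) and Ltbp2 (0.37, 0.0026). In the libraries with rmTGF-β1 there, Tgfbr1 had 5314, 6546 and 7730 normalized counts. No gene list was fitted without the libraries that stood apart. Of the 10 genes that check the response to TGF-β, rmTGF-β1 raised 6 in each genotype and lowered 1 in labelled TLR4-/- cells, Tagln (-0.40, edgeR adjusted p = 0.017). The shares over all genes are those just given for each genotype.

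**Figure D5:**
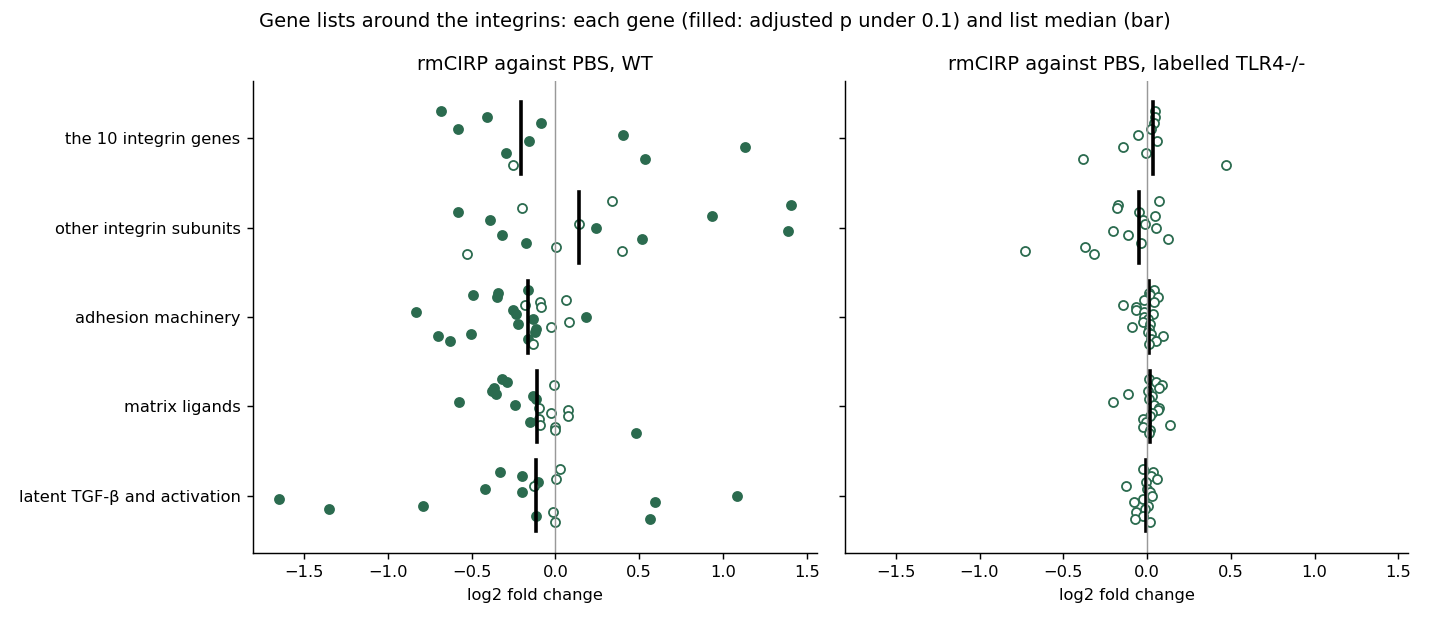
Log2 fold change of each tested gene for rmCIRP against PBS in WT (left) and labelled TLR4-/- cells (right), by gene list, with the list's median as a bar. Filled points passed an adjusted p of 0.1: in WT cells 16 of 23 genes of the adhesion machinery are filled, where 43.9% of all genes tested passed. In labelled TLR4-/- cells none of any list is filled, where 0% of all genes tested passed.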

How the data were processed

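Total RNA of 24 libraries was sequenced on a NextSeq instrument from a stranded kit. STAR2 was the aligner, with GENCODE for mouse as reference, and the authors deposited unnormalized counts for each gene symbol, made with ht-seq (HTSeq in the submitters' processing notes, which also name the build NCBIM37 and FastQC). The annotation release and the strand setting are not given in the sources used here. The 5 tally lines that name no gene held 14.5% to 16.1% of the reads in each file and were left out. Gene symbols were used as deposited. GENCODE M21 gave only exon lengths and RefSeq GRCm38.p6 only promoter windows, so no coordinate comes from the count files.

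The counts were tested in R 4.3.3 with edgeR 4.0.16: filterByExpr, TMM, one glmQLFit model with a mean for each of 8 conditions over 24 libraries (common biological coefficient of variation 0.0571), 12 contrasts by glmQLFTest, Benjamini-Hochberg over 16258 genes, and a threshold of 0.1 as in the study's methods. SE is the log2 fold change over the square root of F. Normalized counts use size factors of DESeq2 1.42.0. Counts of 29853346 reads or more per library leave counting error small except for Itgb8 and Itgbl1.

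The members and gene lists were chosen with earlier results of these data known. Named are all 10 integrin genes, per list and comparison described at most 4 genes past the threshold with the largest fold change, and the 2 genes most alike in Pearson's r, except 1 gene that is not reported here. For groups sharing replicate numbers, the correlation of deviations between same-numbered libraries averaged 0.012 (-0.117 to 0.369 over 84 pairs, not all over 0.1), so no block was used. Alternatives were DESeq2, RLE, upper-quartile scaling, library size alone, no filter, a mean count of at least 10, only the libraries compared, the block, each library left out and, chosen after seeing the data, both libraries that stood apart left out.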

Additional observations from a re-analysis of the deposited data

Results flagged for a closer look

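The genotype difference in the response to rmCIRP passed the threshold for each of the 10 integrin genes, where 31.4% of all genes tested did in either direction. It was tested directly (labelled TLR4-/- minus WT, log2 scale, quasi-likelihood F test of edgeR, Benjamini-Hochberg adjusted). Of 12 fits without 1 library, the call was lost in 8 for Itga5, 7 for Itgb8, 5 for Itga11, 2 for Itgb1 and 1 for Itgbl1. Itga5 also lost it in 4 of 8 other settings. Itgav (-0.46, adjusted p = 3.1e-05), Itgb3 (-1.28, 0.006) and Itgb8 (-0.91, 0.076) had the lower response in labelled TLR4-/- cells. The higher response there belonged to Itgb1 (0.22, adjusted p = 0.026), Itgb5 (0.29, 0.0011), Itga1 (0.74, 0.0026), Itga5 (0.12, 0.093), Itga8 (0.61, 3e-04), Itga11 (0.45, 0.055) and Itgbl1 (0.73, 0.028). The groups of 3 libraries are too small for a test of single outlying libraries.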

How the results depend on the processing

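Of 54 calls of an integrin gene in a comparison, 38 held in every alternative run and 16 were lost in 1 or more, and no call turned its direction. Both agents against rmTGF-β1 in labelled TLR4-/- cells gave 0 calls, and 3 with DESeq2, 3 with no filter on low counts, 2 with a replicate block and 1 without both libraries that stood apart, an alternative chosen after seeing the data. Over all genes these gave 902, 1580, 810 and 652 calls in place of 437. For the difference between genotypes in the rmTGF-β1 response, 0 became 1 with DESeq2, 3 with no filter and 1 without both libraries. Over all genes these gave 163 of 12350, 563 of 34285 and 190 of 16483, in place of 14 of 16258. Leaving out 1 library gave 0 to 4 calls for both agents against rmTGF-β1 in labelled TLR4-/- cells, 5 to 10 for the genotype difference in the rmCIRP response, lowest without the second labelled TLR4-/- library with rmCIRP, and 2 to 4 for rmTGF-β1 in WT cells, lowest without its second library. Over all genes these fits gave 0 to 2674, 4237 to 4934 and 1029 to 1690 calls, in place of 437, 5113 and 2019. The cause of each change was not tested. Replicate numbers were not taken to pair the libraries, since correlations between same-numbered libraries fell as low as -0.117. Of 24 libraries, 12 correlated best with their own number, where 8 would with no pairing, a hint from the data and not from the design. Besides those 2, the block gave 10 calls for rmCIRP in WT cells and 8 for rmTGF-β1 in labelled TLR4-/- cells, where the unblocked fit gave 9 and 6, and within 1.5 times elsewhere. Of 16258 genes tested, the block called 7155 and 3954 in these comparisons, in place of 7130 and 3884. Under upper-quartile scaling the share of calls over all genes that were higher was 33.8% (2572 higher, 5048 lower) in place of 45% (3212 and 3918) for rmCIRP in WT cells, 34.1% in place of 48.7% for both agents against rmTGF-β1 there, 65.9% in place of 54.4% for the genotype difference, 41.9% in place of 52.4% and 47.9% in place of 58.1% for both agents against rmCIRP and against rmTGF-β1 in labelled TLR4-/- cells, and 85.7% in place of 75% for the interaction. With library size alone it was 34.8% for rmCIRP in WT cells, 35.8% in place of 46.5% for rmTGF-β1 there, and 37.9% in place of 50.8% and 74% in place of 58.1% for rmTGF-β1 and for both agents against it in labelled TLR4-/- cells. Depth limits Itgb8, with as few as 7 reads in a library.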
